A study of Rattus norvegicus with 6 samples.

Results

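The 6 genes described here are Il1b, Il6, Ccl2, Ptgs2, Icam1 and Nfkbia, which are among the best known inflammatory targets of the transcription factor NF-kB. They were chosen by Ensembl gene ID, with no measured value in the rule, and are 6 of the 32545 gene rows in the table: ENSRNOG00000004649 (Il1b), ENSRNOG00000010278 (Il6), ENSRNOG00000007159 (Ccl2), ENSRNOG00000002525 (Ptgs2), ENSRNOG00000020679 (Icam1) and ENSRNOG00000007390 (Nfkbia). The pairing of ID and symbol came with the rule, and no table used here could check or contradict it. Polyadenylated RNA was sequenced from the femur of Wistar rats, an outbred laboratory strain, with 3 control libraries and 3 libraries from rats under chronic sleep deprivation (CSD). The labelled ages are 12, 13 and 14 weeks for controls 1 to 3 and 15, 16 and 17 weeks for CSD 1 to 3, whereas the series description gives 12 weeks for both groups. An effect of CSD and an effect of labelled age therefore cannot be told apart. The sources used here do not give the method of sleep restriction, the number of animals behind a library or the treatment of the marrow. P-values accordingly measure the spread between these libraries, which may be technical.

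The comparison asks whether CSD changed the transcript levels of NF-kB driven inflammatory genes in bone. NF-kB is a family of dimeric transcription factors held in the cytoplasm by inhibitor proteins, chiefly IkB-alpha, the product of Nfkbia. Interleukin-1, tumour necrosis factor and related signals activate a kinase that marks IkB-alpha for degradation, and the freed NF-kB enters the nucleus and binds kappa-B sites in promoters and enhancers. Nfkbia is itself a target, which closes a negative feedback loop. In bone, NF-kB acts downstream of RANK ligand in the formation of osteoclasts, the cells that resorb bone, and interleukin-1 beta, interleukin-6 and prostaglandin E2 are known to promote resorption.

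Of the 6 members, 4 had enough reads to be tested (Il1b, Ptgs2, Icam1 and Nfkbia). None of the 4 was called different between CSD and control in edgeR (adjusted p under 0.05), where 0% of 13431 tested genes were. For each of the 4 the CSD and control libraries overlapped, while 16.8% of tested genes had groups that did not overlap. Neither count therefore sets the members apart from other genes. Nfkbia varied least of these 4 over the 6 libraries. For each of the 4, the SD of CPM within the CSD group was larger than the difference between the group means. Ccl2 was near the limit of detection, and Il6 gave 3 reads in the control libraries together and none in the CSD libraries.

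Libraries held 8366443 to 9572898 reads in genes, and 13431 genes passed a filter on low counts. By mean rank correlation over these genes (Spearman's rho), control 1 lay about as near to the CSD libraries (0.969) as to the other controls (0.971), while the other 5 libraries averaged 0.969 to 0.977 with their own group and 0.950 to 0.959 with the other. Without control 1 edgeR called 151 of 13771 genes in place of 0. None was a member, but at so small a share this says little about 4 members. The log2 fold changes given below then became -0.14 for Il1b, -0.13 for Ccl2, -0.58 for Ptgs2, -0.19 for Icam1 and -0.021 for Nfkbia. Because no table used here pairs rat Ensembl IDs with symbols, markers of bone, marrow, muscle and immune cells could not be looked up, and neither the femur label nor the mix of cells was checked. In bulk tissue, fewer cells of a type and less RNA per cell cannot be told apart.

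Promoter sequence is shown for the 3 members with a kappa-B-like match near the start of transcription, the kind of site through which NF-kB acts on its targets. RefSeq windows on the GRCr8 build, from 250 bases before to 50 bases after the start, were at hand for 5 members, all but Ccl2. The patterns searched, on both strands, were the kappa-B consensus decamer and the shorter core GGNNNTTCC, which can overlap it. The decamer matched in 2 of the 5 members and in 7.52% of 33465 rat promoter windows of the same length. The core matched in 3 of the 5 and in 18.3% of all windows. The 250 bases upstream of the start are given below, 5′ to 3′ on the strand of the gene, with capitals for the bases covered by a match to either pattern. They lie at chr4:5894576-5894825 (minus strand) for Il6, chr8:27829595-27829844 (plus strand) for Icam1 and chr6:78597073-78597322 (minus strand) for Nfkbia.
Il6: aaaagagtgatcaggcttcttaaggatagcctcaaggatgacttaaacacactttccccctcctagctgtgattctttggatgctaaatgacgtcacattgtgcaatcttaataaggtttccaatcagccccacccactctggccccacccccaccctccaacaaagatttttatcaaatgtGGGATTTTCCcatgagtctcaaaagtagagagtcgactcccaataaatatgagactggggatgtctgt
Icam1: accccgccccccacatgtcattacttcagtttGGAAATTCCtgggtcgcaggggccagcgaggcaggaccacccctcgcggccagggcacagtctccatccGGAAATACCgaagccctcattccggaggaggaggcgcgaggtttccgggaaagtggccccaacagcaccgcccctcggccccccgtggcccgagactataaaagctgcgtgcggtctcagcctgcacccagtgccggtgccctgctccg
Nfkbia: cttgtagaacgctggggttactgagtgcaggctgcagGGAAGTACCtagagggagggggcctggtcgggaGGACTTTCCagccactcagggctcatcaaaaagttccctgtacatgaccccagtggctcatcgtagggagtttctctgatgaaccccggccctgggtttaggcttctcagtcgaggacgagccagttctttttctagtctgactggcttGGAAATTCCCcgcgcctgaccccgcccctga
Il6 held 1 decamer, GGGATTTTCC, at positions -68 to -59 from the start site. Nfkbia held 3 places with a match, of which the one nearest the start was the decamer GGGAATTTCC, read on the opposite strand at -31 to -22. Icam1 held 2 places with the core and no decamer, the farther one being GGAAATTCC at -218 to -210. Neither pattern matched in the windows of Il1b and Ptgs2, which says only that these letters are not there. A match is not evidence of binding, and no measurement of NF-kB binding was made in these libraries.

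Il1b encodes interleukin-1 beta, a cytokine released mainly by myeloid cells that both results from NF-kB activity and triggers it. Levels are in CPM, gene reads scaled to the size of each library with its normalization factor. Its level was 14.7, 14.0 and 16.4 CPM in controls 1 to 3 and 15.6, 18.9 and 6.83 CPM in CSD 1 to 3. CSD 3 stood below all other libraries, and the other 2 CSD libraries lay within or above the control range. The low value rested on 58 reads, and its 95% Poisson interval of 5.19 to 8.83 CPM did not reach the lowest interval of any other library, which began at 11.7 CPM. These intervals cover counting error only.

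Il1b averaged 15.0 ± 1.26 CPM in controls (SD, n = 3) against 13.8 ± 6.25 CPM in CSD (SD, n = 3). The log2 fold change, CSD minus control, was -0.12 (SE 0.33), with an adjusted p of 0.896 in edgeR's quasi-likelihood test. The 95% interval of the fold, 0.543 to 1.55, leaves room for changes in either direction. Without CSD 3 the log2 fold change turned to 0.20, and without CSD 2 it was -0.43.

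Il6 encodes interleukin-6, a cytokine made by stromal, osteoblastic and myeloid cells on inflammatory stimulation. It gave 1, 2 and 0 reads in controls 1 to 3 and 0 reads in each CSD library. The CSD count of 0 over the group allows a level of up to 0.116 CPM, taking 3 reads as the floor, and the 3 control reads correspond to 0.109 CPM. Both groups were thus at or under the floor, no fold is given, and a difference was not detectable at this depth.

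Ccl2 encodes monocyte chemoattractant protein 1, which draws monocytes to inflamed tissue. Its reads numbered 5, 12 and 0 in controls 1 to 3 and 6, 8 and 1 in CSD 1 to 3. Each group thus had 1 library at or near 0, control 3 and CSD 3, and the groups overlapped. Its mean was 0.611 ± 0.637 CPM in controls (SD, n = 3) against 0.578 ± 0.413 CPM in CSD (SD, n = 3). Ccl2 failed the filter on low counts. Fitted without the filter, its log2 fold change was -0.075 (SE 1.03), with an edgeR adjusted p of 0.990 in a fit that called 0.574% of 19514 genes. The 95% interval of the fold was wide, from 0.202 to 4.46. The sign followed single libraries: without control 2 the value was 1.02, without CSD 3 0.39, without control 1 -0.13, without CSD 1 -0.23, without control 3 -0.65 and without CSD 2 -0.57.

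**Figure D1:**
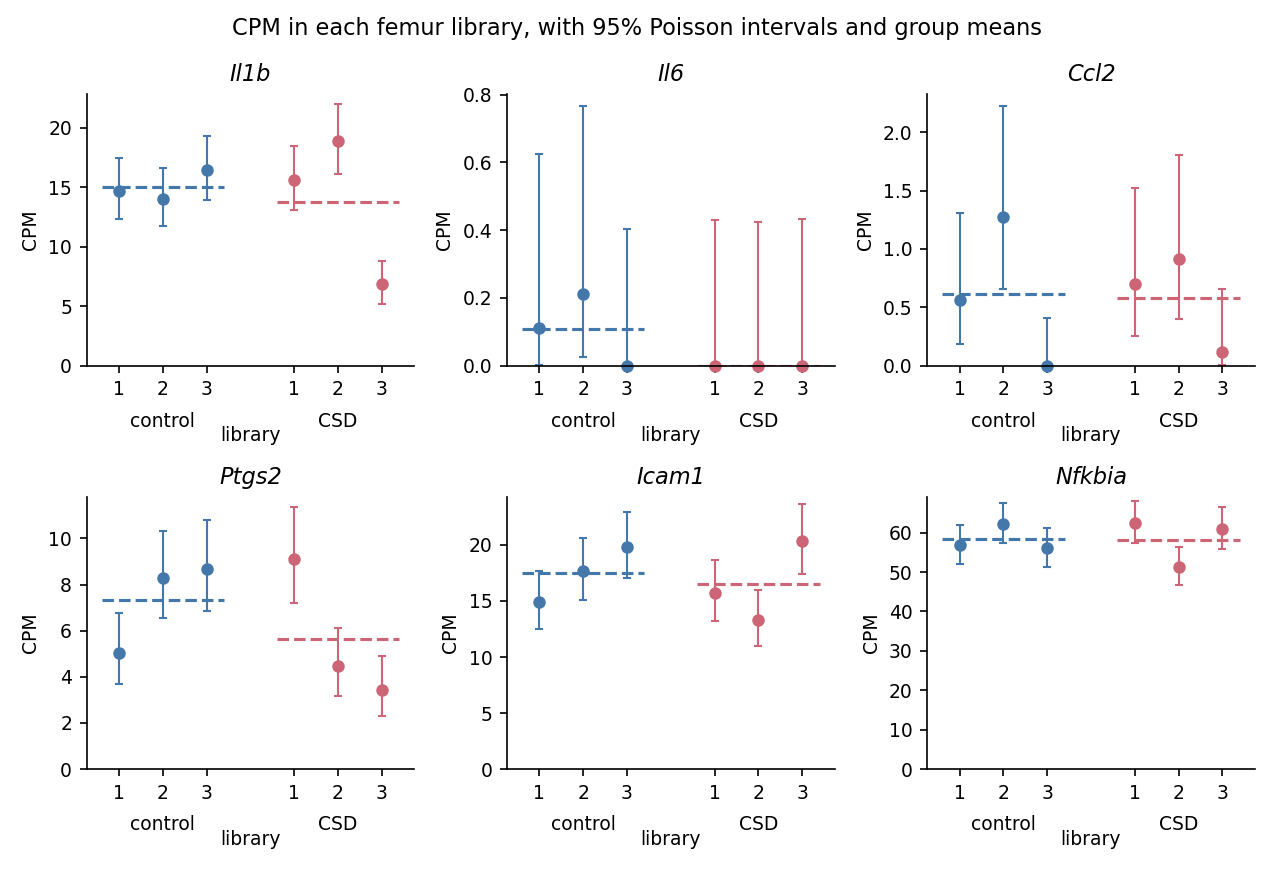
Level of each of the 6 genes in CPM (vertical axes, each starting at 0) in control libraries 1 to 3 (blue) and CSD libraries 1 to 3 (red). Points are libraries, bars are 95% Poisson intervals of the read count and dashed lines are group means. The groups overlap in every panel, in that of Il6 only through libraries tied at 0 reads. Of all tested genes, 16.8% had groups that did not overlap. CSD 3 is the lowest library for Il1b (6.83 CPM) and Ptgs2 (3.42 CPM) but the highest for Icam1 (20.4 CPM).

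Ptgs2 encodes cyclooxygenase-2, the inducible enzyme that starts prostaglandin synthesis from arachidonic acid. Its level was 5.05, 8.26 and 8.65 CPM in controls 1 to 3 and 9.09, 4.47 and 3.42 CPM in CSD 1 to 3. CSD 1 was the highest of the 6 libraries while CSD 2 and CSD 3 were the lowest, so the groups overlapped through CSD 1 alone. The control mean was 7.32 ± 1.98 CPM (SD, n = 3) and the CSD mean 5.66 ± 3.02 CPM (SD, n = 3). The log2 fold change was -0.37 (SE 0.40, adjusted p = 0.714 in edgeR's quasi-likelihood test), with a 95% interval of the fold from 0.410 to 1.46.

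The lower mean of Ptgs2 in CSD depended on which libraries were used. Without CSD 1 the log2 fold change was -0.90, with a 95% interval of -1.70 to -0.10 and an adjusted p of 0.210 in edgeR. Without control 1 it was -0.58, and without CSD 3 it was -0.11. The fitted sign was negative in each of the 14 alternative analyses, and their adjusted p ran from 0.210 to 0.960.

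Icam1 encodes intercellular adhesion molecule 1, the surface protein on endothelial, stromal and myeloid cells to which leukocyte integrins bind. Its level was 14.9, 17.7 and 19.8 CPM in controls 1 to 3 and 15.7, 13.3 and 20.4 CPM in CSD 1 to 3. CSD 2 was the lowest and CSD 3 the highest library, so the CSD values spanned those of the controls. The control mean was 17.5 ± 2.45 CPM (SD, n = 3) and the CSD mean 16.5 ± 3.59 CPM (SD, n = 3). Its log2 fold change was -0.087 (SE 0.21), with an adjusted p of 0.880 in edgeR. The 95% interval of the fold was 0.679 to 1.30. Without CSD 2 the value became 0.037, without control 3 it became 0.014, without control 1 it was -0.19 and without CSD 3 -0.27.

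Nfkbia encodes IkB-alpha, the inhibitor that NF-kB induces as its own brake, and its transcript is widely used as a readout of NF-kB activity. It had 447 to 587 reads per library. Its level was 56.8, 62.2 and 56.1 CPM in controls 1 to 3 and 62.5, 51.3 and 61.0 CPM in CSD 1 to 3. CSD 2 was the lowest and CSD 1 the highest library, and the highest was 1.22 times the lowest within CSD and 1.11 times within controls. The control mean was 58.4 ± 3.34 CPM (SD, n = 3) and the CSD mean 58.2 ± 6.08 CPM (SD, n = 3).

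The log2 fold change of Nfkbia was -0.0032 (SE 0.13), with an adjusted p of 0.995 in edgeR. Its 95% interval of the fold, 0.818 to 1.22, was the narrowest of the members. A test that misses the threshold does not show equal levels, and these bounds moved with the processing. As log2 fold changes the 95% interval was -0.29 to 0.28, against -0.45 to 0.19 with library totals alone. Without CSD 2 it was -0.25 to 0.40. The fitted value of Nfkbia stayed between -0.13 and 0.073 over 14 alternatives. With so small a value the sign carries no information, and it was positive without control 2 (0.046), without CSD 2 (0.073) and with no filter (0.0030).

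**Figure D2:**
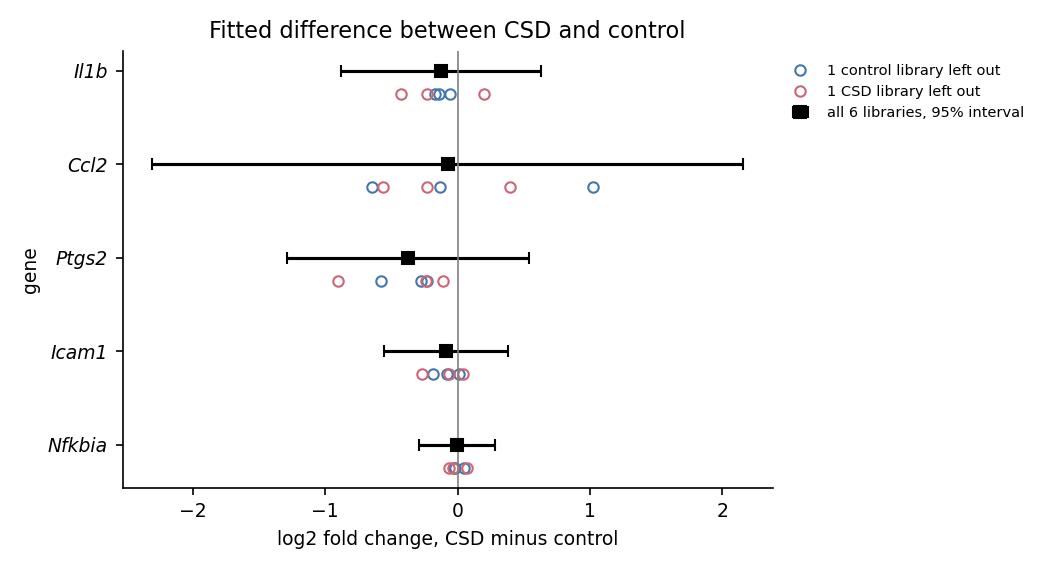
Log2 fold change, CSD minus control (horizontal axis), of the 4 tested genes and of Ccl2. Values of Ccl2, which failed the filter on low counts, are from fits without the filter. Squares and bars are the value and 95% interval with all 6 libraries and open circles are values with 1 library left out (blue, a control; red, a CSD library); every interval spans 0, from the narrow one of Nfkbia (-0.29 to 0.28) to the wide one of Ccl2 (-2.31 to 2.16).

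Set against the whole table, 0 of the 4 tested members passed an adjusted p of 0.05 in edgeR, where 0% of the 13431 tested genes did. At an unadjusted p under 0.05 there were 0 of 4 members, against 12.5% of tested genes. Groups that did not overlap in CPM were found for 0 of the 4 tested members and for 16.8% of tested genes. The groups of Il6 and Ccl2, which were not tested, also overlapped, those of Il6 through libraries tied at 0 reads. DESeq2 called 1.99% of the genes it could test and limma-voom 0%, and neither called a member. All 4 fitted values were below 0, where 49.7% of tested genes were, and the sign held in every alternative for Ptgs2 but not for Il1b, Icam1 and Nfkbia. The median log2 fold change of tested genes was 0.0026, with quartiles at -0.22 and 0.19, and only Ptgs2 among the 4 lay outside these quartiles.

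**Figure D3:**
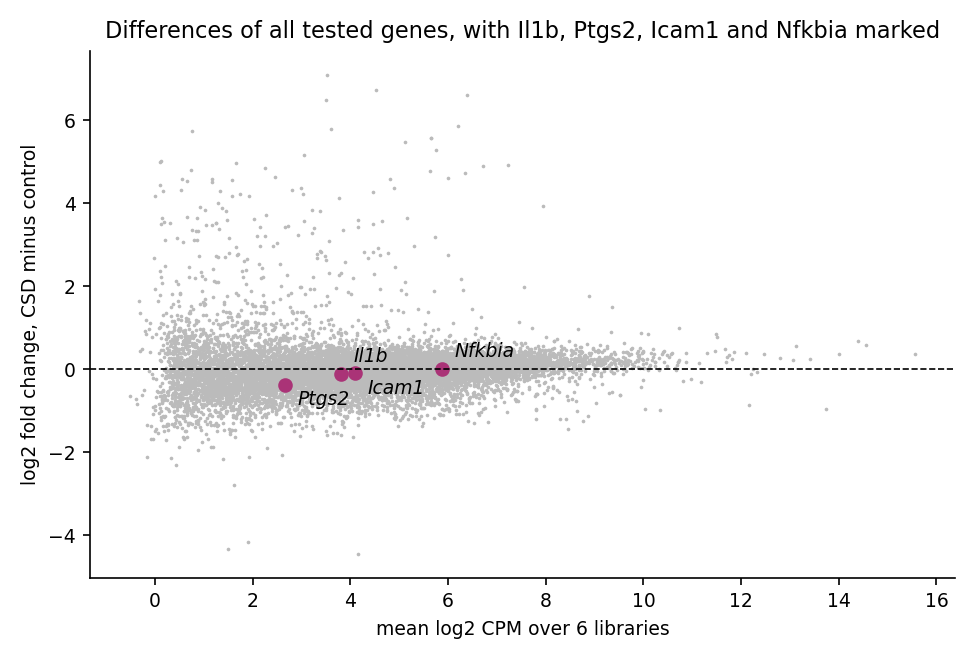
Log2 fold change, CSD minus control, against mean log2 CPM over the 6 libraries for the 13431 tested genes (grey), with Il1b, Ptgs2, Icam1 and Nfkbia in purple. The dashed line is the median of all tested genes (0.0026); the 4 genes lie in the body of the cloud, Ptgs2 lowest at -0.37.

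The members differed from each other in how much they varied within groups. The pooled within-group SD of log2 CPM was 0.58 for Ptgs2 and 0.55 for Il1b, above that of 89.0% and 87.8% of tested genes, whose median was 0.23. Icam1, at 0.26, was close to that median, and Nfkbia, at 0.12, was above only 14.5% of tested genes. Spread depends on the number of reads, so genes with few reads lie higher on this scale. For Il1b the library farthest from its group mean was CSD 3, at -0.87. For Ptgs2 several libraries lay far from theirs: CSD 1 at 0.78, CSD 3 at -0.57 and control 1 at -0.48.

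**Figure D4:**
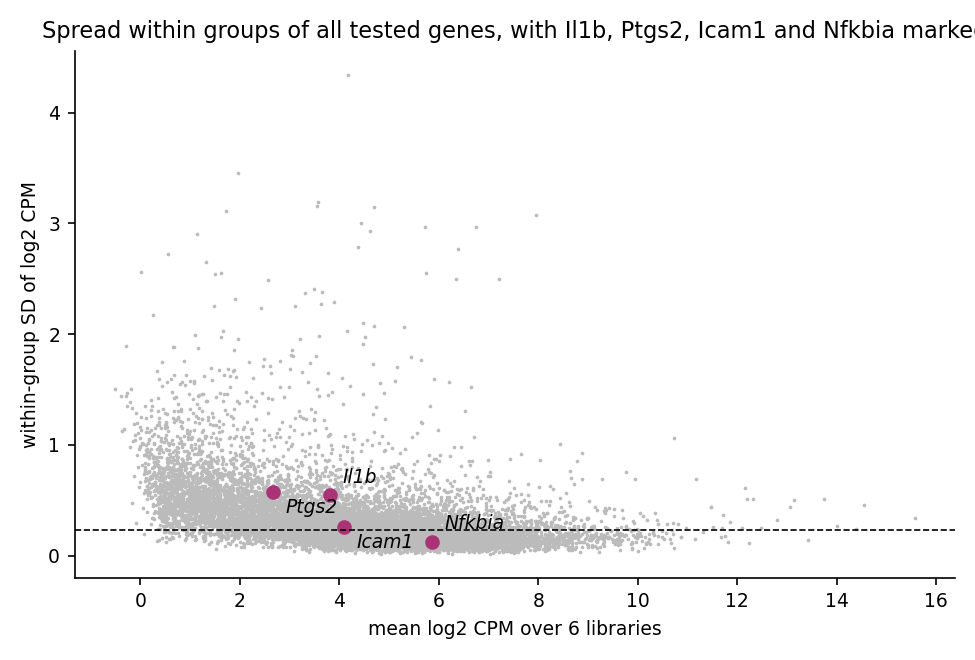
Pooled within-group SD of log2 CPM against mean log2 CPM for the 13431 tested genes (grey), with Il1b, Ptgs2, Icam1 and Nfkbia in purple. The dashed line is the median of all tested genes (0.23); Il1b (0.55) and Ptgs2 (0.58) lie above it, Icam1 (0.26) near it and Nfkbia (0.12) below it.

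The 6 genes did not share an order of libraries. In CSD 3, Il1b, Ptgs2 and Ccl2 were below their CSD means by 0.87, 0.57 and 1.06 on the log2 CPM scale, while Icam1 was 0.32 above its mean and Nfkbia 0.072 above. In CSD 2, Il1b was 0.57 above its group mean and Ptgs2 0.21, Icam1 0.28 and Nfkbia 0.18 below. In control 3, Ccl2 had no read, whereas Il1b, Ptgs2 and Icam1 each had their highest control value. Among the 4 tested members, the pair with the most alike profiles over the 6 libraries was Icam1 and Nfkbia, with a root mean square difference of 0.18 between their centred log2 CPM, and the other 5 pairs differed by 0.47 to 0.63. This measure grows with a gene's own spread, and Icam1 and Nfkbia were the least variable of the 4, with SDs over the 6 libraries of 0.24 and 0.11 against 0.51 for Il1b and 0.57 for Ptgs2. The small difference is therefore no sign of a shared profile.

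The genes most like each member by the same measure were sought among the other 13427 tested genes, as a description over 6 libraries. For Nfkbia this was ENSRNOG00000020357 (root mean square difference 0.031; 17.9 CPM in controls and 18.0 CPM in CSD). For Icam1 it was ENSRNOG00000002488 (0.056; 147 and 139 CPM), and for Ptgs2 it was ENSRNOG00000010100 (0.074; 10.6 and 8.02 CPM). The nearest gene to Il1b differed by 0.086 and is not named, because at most 2 IDs at lower fitted levels in CSD are printed. No names for these IDs were at hand. Each gene was picked as the closest of 13427 over the same 6 libraries that form the group means. A similar difference between CSD and control follows from that choice and is no support for the member's value.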

How the data were processed

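Raw counts of reads per gene, with 1 column per library, were deposited by the authors. The submitters' processing notes name HTSeq 0.12.4, HISAT2 2.2.1 and, as the genome build, rn6. The sources used here give neither the annotation release nor the strand setting, so reads of overlapping or antisense genes cannot be told apart. The 5 closing rows that name no gene stayed out of library sizes and tests; genes received 36.2% to 38.2% of the reads. Of 19514 genes with a read, 13431 passed edgeR's filterByExpr at its defaults. Libraries were scaled with TMM factors (0.912 to 1.07). CSD was compared with control by edgeR 4.0.16's quasi-likelihood test (R 4.3.3, two-sided, no covariate), with Benjamini-Hochberg adjustment over all tested genes at 0.05. Log2 fold changes use a prior count of 0.125, their SE is the absolute value divided by the square root of F, and their 95% intervals use the t distribution on the test's degrees of freedom. Log2 CPM use a prior count of 2. Alternatives were other scalings and filters, DESeq2 1.42.0, limma-voom 3.58.1, a block on the replicate number, and each library left out in turn. The test was checked on simulated data.

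The members and lists were chosen with earlier results of these data known. The pairs of Ensembl ID and symbol came with the list of members. All 6 symbols are in the RefSeq gene table (GRCr8), but that table holds 0 rat Ensembl IDs, so the pairs could be neither checked nor contradicted. For the same reason wider lists of NF-kB pathway genes and of cell type markers were not tested. Named genes are the 6 members and, for likeness of profile, the nearest gene to each tested member, limited to the 2 closest IDs per direction, which left out that of Il1b.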

Additional observations from a re-analysis of the deposited data

How the results depend on the processing

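No member was called in any of the 14 alternatives. The 4 tested members and Ccl2, which was fitted without the filter throughout, gave 69 alternative values, and adjusted p ran from 0.210 to 1.00. For Ccl2 the alternative with no filter is the reported fit itself, so its value there (-0.075) could not differ. Ccl2 had no value with a minimum of 1 CPM in 3 libraries, which it did not pass, and Il6 was given no fold. Of these values, 10 had the opposite sign to the reported one, and none of the values passed the threshold. For Il1b this was without CSD 3 (0.20; range with 1 library left out -0.43 to 0.20). For Icam1 it was without control 3 (0.014) and without CSD 2 (0.037; range -0.27 to 0.037). For Nfkbia it was with no filter (0.0030), without control 2 (0.046) and without CSD 2 (0.073; range -0.065 to 0.073). For Ccl2 it was with limma-voom (0.52), with the replicate block (0.14), without control 2 (1.02) and without CSD 3 (0.39; range -0.65 to 1.02). Scaling to library totals alone moved the median of all tested genes to -0.13 and Nfkbia with it, also to -0.13.

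The count of all genes called, 0 of 13431 in edgeR, became 112 of 19514 with no filter. It was 298 of 14957 with DESeq2 and 104 of 13431 with the replicate block. With 1 library left out it was 151 of 13771 without control 1, 230 of 13714 without CSD 1 and 73 of 13772 without CSD 3. It was 0 without any other library. At such small shares, the lack of a called member says little about the members. The causes of these shifts were not tested. Deviations of same-numbered libraries from their group means correlated at -0.01, -0.06 and 0.17 over 13431 genes, and control 1 and control 2 did not correlate best with their own number. The block therefore rests on a shared number alone. Depth limits Il6 and Ccl2: the floor of 3 reads in 1 library corresponds to 0.318 to 0.353 CPM.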
